A study of Mus musculus with 2 samples.

Results

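Ezh1, Ezh2, Eed, Suz12, Kdm6b, Dnmt1, Uhrf1, Dnmt3a, Tet2 and Tet3 are 10 of the 32285 genes counted in 2 mouse melanocyte libraries, and were taken as a named set of Polycomb and DNA methylation enzymes. In both libraries the cells came from the back skin of mice fed doxycycline and carrying Dct-rtTA; tetO-H2B-GFP, in which the promoter of the melanocyte gene Dct drives a doxycycline-dependent activator and this in turn drives GFP fused to histone H2B, and GFP+ cells were sorted. The early-anagen library (Activated McSC) held melanocyte stem cells (McSCs) of mice depilated at 8 weeks of age and taken 4 days later, and the bulb library (Differentiated Mc) held mature melanocytes dissected from the hair bulbs of anagen VI follicles at 5 weeks of age. Each library pooled the cells of 4 mice, with no record of which cell came from which mouse, so each condition was 1 sample, no test between conditions was possible, and every 95% interval below covers counting error only. The early-anagen library was made with version 3 of the droplet chemistry and the bulb library with version 2. By the paper's methods, trypsin freed the early-anagen cells from epidermis, and collagenase with dispase freed the bulb cells from dissected bulbs. Depilation is recorded for the early-anagen mice only. Condition, depilation, cell isolation, chemistry and age of the mice cannot be told apart. H2B-GFP is a stable protein, so GFP marks cells that had made it under Dct as well as those still making it.

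Cells were kept when they had at least 1 UMI (a counted RNA molecule) of Dct, fewer than 3 UMIs of Krt10 and Krt14 together, less than 5% mitochondrial UMIs and more than 10000 UMIs in early anagen or more than 5000 in the bulb. This gave 2785 of 11010 barcodes in early anagen (median 24528 UMIs per cell) and 3734 of 4327 in the bulb (median 14286.5). All 8 melanocyte markers examined had a UMI in at least 85.3% of these cells in early anagen and 75.5% in the bulb. Dct, which the selection required, is among them. The summed level of 6 keratinocyte markers was 37.0 CPM (UMIs scaled to a common library total) in early anagen and 16.5 CPM in the bulb. These 6 include Krt10 and Krt14, which the selection capped, so both sums are partly set by it. The summed level of 5 fibroblast markers was 1.31 and 0.823, and that of 3 endothelial markers 0.211 and 0.0358. That of 4 leukocyte markers was 3.29 and 7.37, and that of 3 Schwann cell markers 32.6 and 3.08. In the bulb Krt1, Krt15, Krtdap, Col1a1, Lum, Pdgfra, Cdh5, Ptprc and Cd3e were at 0. Other markers of the same lists were present, in up to 21.7% of bulb cells for a keratinocyte marker and 7.26% for a leukocyte marker. In early anagen a keratinocyte marker reached 29.6% of cells, a leukocyte marker 4.45% and a Schwann cell marker 50.1%. The part of these cell types in the results was not tested. The libraries shared 1 barcode of all and 0 among the kept cells.

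Polycomb repressive complex 2 (PRC2) places methyl groups on lysine 27 of histone H3, a mark of silenced developmental genes. Its catalytic subunit is Ezh2 or the paralogue Ezh1, Suz12 and Eed are core subunits without which it does not work, and Kdm6b removes the mark. DNA methylation is copied after replication by Dnmt1, which Uhrf1 brings to newly made DNA, is placed anew by Dnmt3a, and is oxidized by Tet2 and Tet3 on the way to its removal. In the melanocyte lineage both systems are best known from melanoma, in which EZH2 is often raised and 5-hydroxymethylcytosine, the product of the Tet enzymes, is often low.

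RefSeq promoter windows, from 250 bases before to 50 after a start site on GRCm38.p6, were given for 9 of the 10 genes (14 windows), with no entry for Kdm6b. The E2F consensus TTTNNCGC, searched on both strands, was present in 5.17% of all 32851 windows and in at least 1 window of 5.93% of 27025 genes. It was found for Ezh2, Suz12, Dnmt1 and Uhrf1, and no window of Ezh1, Eed, Dnmt3a, Tet2 or Tet3 held these letters. The 4 windows below are shown because these 4 genes were those at least 1.5-fold higher in cycling cells in the results that follow, and the Ezh1 window is shown beside its paralogue Ezh2. Capitals mark the E2F letters on either strand. A match describes the letters and is not evidence of a bound factor.
Ezh2 promoter, chr6:47594981-47595280, minus strand: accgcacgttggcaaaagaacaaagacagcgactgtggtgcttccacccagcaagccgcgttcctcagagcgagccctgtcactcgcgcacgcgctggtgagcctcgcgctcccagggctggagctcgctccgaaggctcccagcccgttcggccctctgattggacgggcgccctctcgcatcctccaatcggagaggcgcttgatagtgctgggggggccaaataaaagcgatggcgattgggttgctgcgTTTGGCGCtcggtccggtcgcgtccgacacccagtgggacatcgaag
Suz12 promoter, chr11:79992856-79993155, plus strand: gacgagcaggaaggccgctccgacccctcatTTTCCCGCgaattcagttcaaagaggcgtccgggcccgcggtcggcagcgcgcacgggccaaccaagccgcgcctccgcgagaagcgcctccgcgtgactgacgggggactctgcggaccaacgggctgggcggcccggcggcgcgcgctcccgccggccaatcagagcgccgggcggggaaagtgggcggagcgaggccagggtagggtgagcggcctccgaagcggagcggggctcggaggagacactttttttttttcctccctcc
Dnmt1 promoter, chr9:20952574-20952873, minus strand: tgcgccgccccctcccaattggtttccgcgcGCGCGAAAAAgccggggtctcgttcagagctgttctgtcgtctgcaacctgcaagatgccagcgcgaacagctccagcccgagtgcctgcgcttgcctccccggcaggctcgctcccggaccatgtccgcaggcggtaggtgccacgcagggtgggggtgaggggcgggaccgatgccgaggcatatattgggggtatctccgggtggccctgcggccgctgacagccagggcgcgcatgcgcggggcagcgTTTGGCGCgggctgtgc
Uhrf1 promoter, chr17:56304063-56304362, plus strand: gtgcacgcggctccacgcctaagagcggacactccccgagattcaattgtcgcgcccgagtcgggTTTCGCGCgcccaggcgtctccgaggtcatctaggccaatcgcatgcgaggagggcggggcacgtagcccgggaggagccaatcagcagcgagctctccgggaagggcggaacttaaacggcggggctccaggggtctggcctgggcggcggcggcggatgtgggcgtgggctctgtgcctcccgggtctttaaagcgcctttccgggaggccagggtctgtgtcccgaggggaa
Ezh1 promoter, chr11:101226414-101226713, minus strand: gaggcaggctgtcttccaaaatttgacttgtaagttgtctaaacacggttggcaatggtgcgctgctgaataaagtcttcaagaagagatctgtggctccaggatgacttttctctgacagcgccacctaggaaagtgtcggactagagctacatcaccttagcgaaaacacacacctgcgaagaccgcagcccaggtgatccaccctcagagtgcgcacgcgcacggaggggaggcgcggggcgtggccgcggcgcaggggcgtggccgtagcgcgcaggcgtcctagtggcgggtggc

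In Ezh2 the match TTTGGCGC began at position 4, counting the first transcribed base as 1, which is base 254 of the window. In Suz12 the match TTTCCCGC began 219 bases before the start. The Dnmt1 window shown, 1 of 3 for this gene and the only one of them with a match, held 3 matches, of which GCGCGAAA and GCGAAAAA overlapped near its 5′ end and TTTGGCGC lay after the start. Both Uhrf1 windows held a match, TTTCTCGC in the first and TTTCGCGC in the second, which is the one shown. The cell cycle homology letters TTNGAA, searched in the same way, were too common to set the genes apart. They were in 40.3% of all windows, and among the 10 genes in windows of Eed, Suz12, Ezh1 and Dnmt1 without overlapping an E2F match. CpG content ranged from 2 to 57 CpGs per window among the 14 windows, against a median of 7.0 over all windows.

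Bulb melanocytes had lower levels of all 10 enzymes than early-anagen McSCs did, beyond counting error, except that Eed was level (ratio 0.01) under the alternative TMM scaling. The size of the difference ranged from 1.23-fold for Eed to 15.3-fold for Uhrf1. Here a level is the sum of a gene's UMIs over all kept cells, scaled to CPM, and a ratio is the log2 of bulb over early anagen. At least 2-fold lower levels were found for 7 of the 10 enzymes, beside 26.6% of the 7338 genes of at least 10 CPM in the libraries pooled, and at least 2-fold higher levels for 0 of 10, beside 15.8%. The median ratio of the 10 was -1.90 (-2.03 to -1.78), beside -0.14 over all 7338 genes. Here and below, the range beside a median of the 10 joins the medians of their lower and upper counting bounds. It is no interval of the median and leaves out the spread among the enzymes. Relative to the median of all genes, Eed, at -0.16, lay near the body of genes and Uhrf1, at -3.79, far from it. Ezh1 was the 1 enzyme that did not pass 10 CPM, and is included in these counts. The levels were from 3′ ends and not scaled by transcript length, so they are compared between libraries and not between genes.

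**Figure D1:**
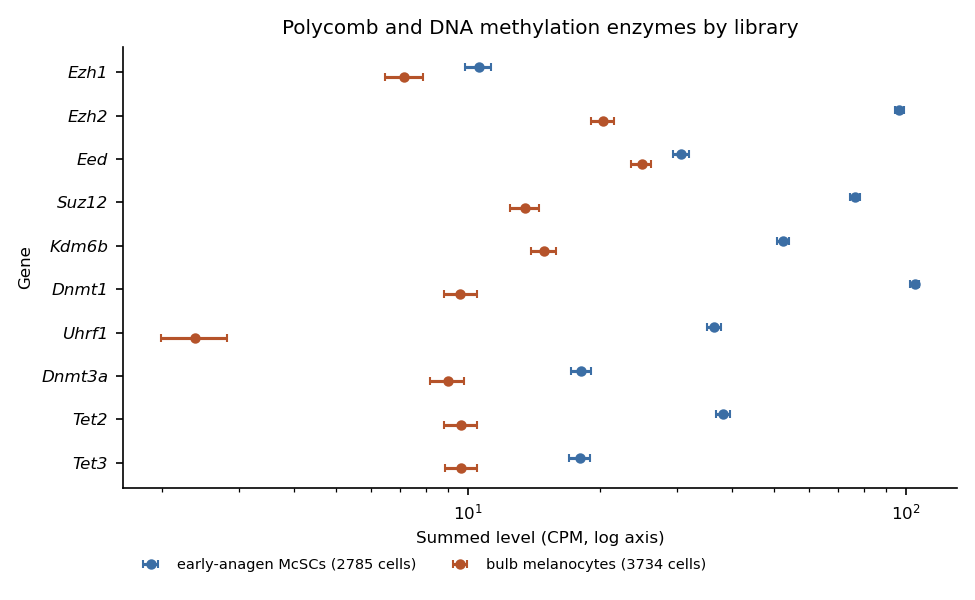
Summed level of each enzyme (CPM, log axis) in early-anagen McSCs and bulb melanocytes, with 1 point per library and bars for the 95% counting interval. Every bulb point lies to the left of its early-anagen point, by least for Eed (level under TMM scaling) and by most for Uhrf1.

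Among the PRC2 subunits, Ezh2, which carries the main methyltransferase activity of dividing cells, stood at 96.3 CPM (94.1 to 98.6) in early anagen and 20.3 CPM (19.1 to 21.5) in the bulb, a ratio of -2.25 (-2.34 to -2.16). Suz12, which holds the complex together, stood at 76.5 CPM (74.6 to 78.5) and 13.5 CPM (12.5 to 14.5), a ratio of -2.50 (-2.62 to -2.39). Eed, the subunit that binds the finished mark, stood at 30.6 CPM (29.4 to 31.9) and 24.9 CPM (23.6 to 26.2), a ratio of -0.30 (-0.40 to -0.20). The 3 core subunits thus did not share 1 ratio, since the intervals of Ezh2 and Suz12 were far from that of Eed. Ezh1, the paralogue associated with resting cells, stood at 10.6 CPM (9.85 to 11.3) and 7.14 CPM (6.46 to 7.88), a ratio of -0.57 (-0.74 to -0.39). Kdm6b, the demethylase that opposes PRC2, stood at 52.4 CPM (50.8 to 54.1) and 14.9 CPM (13.9 to 15.9), a ratio of -1.82 (-1.93 to -1.71). The enzyme that removes the mark was therefore lower in the bulb along with those that place it.

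The maintenance pair of DNA methylation had the lowest ratios of the 10. Dnmt1 stood at 105 CPM (102 to 107) in early anagen and 9.61 CPM (8.81 to 10.5) in the bulb, which is 10.9-fold lower (ratio -3.44, -3.57 to -3.32). Uhrf1 stood at 36.4 CPM (35.1 to 37.8) and 2.38 CPM (1.99 to 2.82), a ratio of -3.94 (-4.20 to -3.68) that rests on 133 bulb UMIs. Dnmt3a, the de novo enzyme, was closer to the body of genes, at 18.1 CPM (17.2 to 19.1) and 8.98 CPM (8.21 to 9.80), a ratio of -1.01 (-1.16 to -0.86). The oxidases differed from each other. Tet2 stood at 38.2 CPM (36.8 to 39.6) and 9.63 CPM (8.83 to 10.5), a ratio of -1.99 (-2.12 to -1.86). Tet3 stood at 18.0 CPM (17.0 to 19.0) and 9.65 CPM (8.85 to 10.5), a ratio of -0.90 (-1.04 to -0.75).

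The share of cells with at least 1 UMI followed the levels, and was compared after every cell had been thinned at random to 5000 UMIs. Ezh2 was then detected in 28.5% of cells in early anagen (26.8 to 30.2) and 8.97% in the bulb (8.07 to 9.93), against 64.5% and 22.9% with all UMIs. Dnmt1 was detected in 29.5% (27.8 to 31.2) and 4.37% (3.73 to 5.07), against 66.5% and 12.5% with all UMIs. Uhrf1 was detected in 11.7% (10.5 to 13.0) and 0.964% (0.676 to 1.33), against 34.0% and 2.73%. Eed, detected in 13.7% (12.4 to 15.0) and 11.3% (10.3 to 12.4), again differed least. No member of the set was detected at 5000 UMIs in 15.8% of the cells in early anagen and in 55.3% in the bulb.

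The complete PRC2 core, meaning Eed, Suz12 and either Ezh1 or Ezh2 in the same cell, was seen in 32.3% of cells in early anagen (30.5 to 34.1) and 2.14% in the bulb (1.70 to 2.66) with all UMIs. At 5000 UMIs it was seen in 1.58% (1.15 to 2.12) and 0.0536% (0.00649 to 0.193, 2 cells). These shares describe joint detection at a given depth and are no estimate of the cells that hold the complex. No cell type in the libraries should lack these widely used genes. In 135 early-anagen cells with at least 20 keratin UMIs, which the selection leaves out, Ezh2 was detected in 31.1% (23.4 to 39.6) at 5000 UMIs and Dnmt1 in 25.2% (18.1 to 33.4), close to the shares in the McSCs. These cells were not chosen for a lack of Dct. Only 26 of 3464 early-anagen barcodes within the UMI and mitochondrial limits had no Dct UMI, so most of the 135 held Dct transcripts. Their median was 32865 UMIs, and whether they mix keratinocyte and melanocyte RNA was not tested. In these keratin-rich cells Tet3 reached 55.9 CPM (49.6 to 62.7) and Kdm6b 105 CPM (96.0 to 114), above the McSC levels given before, while Dnmt3a stood at 11.9 CPM (9.12 to 15.3). How far free RNA carried these transcripts into other cells was not tested.

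The balance of the paralogues Ezh2 and Ezh1 was read as the number of Ezh2 UMIs per Ezh1 UMI, in which the number of cells and their total UMIs cancel. It is not a ratio of molecules, because capture differs between transcripts. It was 9.12 (8.47 to 9.82) in early anagen and 2.84 (2.53 to 3.19) in the bulb. With every cell given the same weight at 5000 UMIs it was 6.34 (5.39 to 7.51) and 2.71 (2.22 to 3.33). Full UMI sums weight deep cells more, and early-anagen cells with proliferation transcripts had a median of 34875 UMIs against 21039 in the others. In cells without a Mki67 or Top2a UMI at 5000 UMIs the values were 3.41 (2.81 to 4.15) in early anagen and 2.55 (2.08 to 3.14) in the bulb. In cells without such a UMI at 10000 UMIs they were 3.19 (2.77 to 3.70) and 2.44 (2.10 to 2.84). The intervals overlapped at both depths, which does not make the values equal, and the bulb value was the lower at both.

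Proliferation was read from Mki67, a nuclear protein of dividing cells, and Top2a, the DNA topoisomerase used in mitosis. Each cell was thinned to 10000 UMIs, so that depth did not set the class, and was called cycling with at least 1 UMI of either gene. By this measure 993 of 2785 early-anagen cells were cycling (35.7%, 33.9 to 37.5), and 69 of the 3288 bulb cells that reach this depth (2.10%, 1.64 to 2.65). In early anagen 4 of the 10 enzymes were at least 1.5-fold higher in cycling cells, beside 7.28% of 7436 genes, and 1 was at least 1.5-fold lower, beside 3.5%. The median ratio of cycling over non-cycling cells was 0.10 (-0.13 to 0.33) for the 10 and -0.02 for all genes, since the enzymes went both ways.

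The 4 genes that were higher in cycling early-anagen cells were those whose promoter windows hold the E2F letters. Uhrf1 stood at 58.8 CPM (54.1 to 63.8) in cycling and 8.93 CPM (7.60 to 10.4) in non-cycling cells, a ratio of 2.72 (2.46 to 2.98). Ezh2 stood at 136 CPM (129 to 144) and 44.0 CPM (41.0 to 47.2), a ratio of 1.63 (1.5 to 1.76). Dnmt1 stood at 139 CPM (132 to 147) and 54.2 CPM (50.9 to 57.8), a ratio of 1.36 (1.24 to 1.48). For Suz12 the difference was smaller, with 95.6 CPM (89.6 to 102) and 52.7 CPM (49.4 to 56.1), a ratio of 0.86 (0.73 to 0.99). The set of windows was searched with these values already known, so the match of both groups of 4 is a description.

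Eed was also higher in cycling cells beyond counting error, but by less than 1.5-fold (ratio 0.39, 0.20 to 0.59). Dnmt3a, with a ratio of -0.19 (-0.46 to 0.08), did not differ beyond counting error. The remaining members were lower in cycling cells. Ezh1, opposite in direction to its paralogue, stood at 8.56 CPM (6.84 to 10.6) in cycling and 13.8 CPM (12.1 to 15.6) in non-cycling cells, a ratio of -0.69 (-1.06 to -0.33). The ratio was -0.58 (-0.77 to -0.39) for Tet2, -0.50 (-0.66 to -0.35) for Kdm6b and -0.43 (-0.71 to -0.16) for Tet3. The removal enzymes Tet2, Tet3 and Kdm6b thus had lower levels in cycling cells, where those of Ezh2, Dnmt1 and Uhrf1 were higher. These levels are shares of a cell's UMIs. Before thinning, cycling cells had a median of 34875 UMIs against 21039 in the others, so the number of transcripts per cell need not differ likewise. With another random draw the ratios were -0.49 for Tet2, -0.64 for Kdm6b and -0.21 for Tet3. The enzymes that place the marks did not move together, since Ezh1 was lower and Dnmt3a did not differ. Without any cell that holds a Krt10 or Krt14 UMI, the count of at least 1.5-fold lower enzymes became 0 (Ezh1 ratio -0.58), and with at least 3 Mki67 and Top2a UMIs against 0 it became 3.

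Cycling cells, 35.7% of early-anagen cells, held 78.5% of the Uhrf1 UMIs (75.4 to 81.4), 63.2% of those of Ezh2 (61.1 to 65.2) and 58.7% of those of Dnmt1 (56.7 to 60.7). Of the Suz12 UMIs they held 50.1% (47.9 to 52.4), and of the Ezh1 UMIs 25.6% (21.0 to 30.7). Thinning gives each cell the same weight, and cycling cells were deeper before it, so these are not shares of all UMIs. Ezh2 UMIs per Ezh1 UMI were accordingly 15.9 (12.8 to 20.1) in cycling and 3.19 (2.77 to 3.70) in non-cycling early-anagen cells.

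Levels were graded with the number of proliferation UMIs, as shown in the plot by class. From 0 through 1 to 2 and 3 to 9 to 10 or more such UMIs per cell (1792, 400, 307 and 286 early-anagen cells), Ezh2 stood at 44.0, 83.0, 150.2 and 196 CPM. Suz12 followed with 52.7, 69.0, 95.4 and 133 CPM. Neither had overlapping intervals between neighbouring classes. Uhrf1 departed from this order, with 8.93, 37.8, 83.7 and 61.5 CPM, so that its level was lower in the class richest in Mki67 and Top2a (52.8 to 71.3) than in the class before it (73.8 to 94.6). Dnmt1 stood at 54.2, 106, 155 and 168 CPM, and its top 2 classes had overlapping intervals. Ezh1 went the other way with 13.8, 11.5, 7.82 and 5.24 CPM, and so did Tet2 with 47.7, 38.2, 31.6 and 23.4 CPM. For both, the intervals of all neighbouring classes overlapped. Kdm6b stood at 65.5 CPM without such UMIs and between 42.7 and 48.5 CPM in the other classes.

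**Figure D2:**
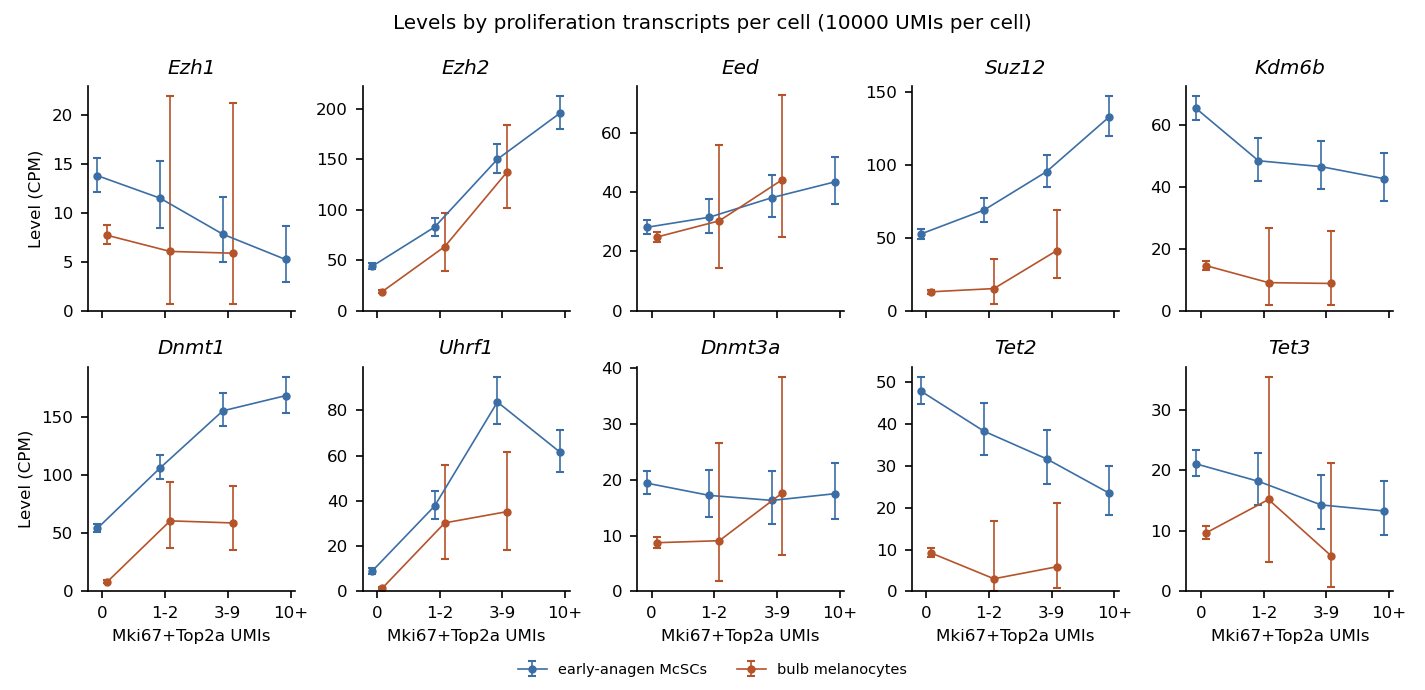
Level of each enzyme (CPM) in cells grouped by Mki67 and Top2a UMIs at 10000 UMIs per cell, for early-anagen McSCs (4 classes) and bulb melanocytes (3 classes; the 2 bulb cells with 10 or more are left out). Bars are 95% counting intervals. Ezh2 and Suz12 are higher with each class in early anagen, and Ezh1 and Tet2 lower, though for these 2 the intervals of neighbouring classes overlap.

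Between cells high only for G1/S genes and cells high only for G2/M genes, the maintenance pair stood apart from the PRC2 subunits. Early-anagen cells in the upper 25% for a list of G1/S genes only (417 cells) were compared with those in the upper 25% for a list of G2/M genes only (422 cells), a comparison added after the class levels had been seen. In the G1/S cells 2 of the 10 enzymes were at least 1.5-fold higher, beside 7.74% of 7412 genes, and 0 were at least 1.5-fold lower, beside 8.30%. Uhrf1 stood at 71.0 CPM in G1/S cells and 24.4 CPM in G2/M cells, a ratio of 1.54 (1.21 to 1.88), and Dnmt1 at 177 and 73.2 CPM, a ratio of 1.27 (1.08 to 1.47). Ezh2 stood at 121 and 105 CPM, a ratio of 0.21 (0.02 to 0.39). Suz12, with 79.1 and 82.9 CPM, had a ratio of -0.07 (-0.29 to 0.15). Dnmt3a was higher in the G1/S cells by less than 1.5-fold (0.53, 0.02 to 1.05). Both classes are cuts on a range of cells, and 202 cells lay within 1 UMI of the G1/S cut and 395 within 1 UMI of the G2/M cut.

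The genes whose levels most resembled those of the enzymes across the 2785 thinned early-anagen cells were, for 4 members, genes of replication and mitosis. Pearson's r over cells, among 8869 genes, is a description with no test. For Ezh2 the nearest were Top2a (0.46), Pclaf (0.45) and Hmgb2 (0.43). For Suz12 they were Top2a (0.25), Hist1h1b (0.24) and Ccna2 (0.24). Dnmt1 was nearest to Mcm3 (0.46), Pcna (0.44) and Dut (0.43), and Uhrf1 to Rrm2 (0.46), Pclaf (0.45) and Dut (0.45), which make or copy DNA or its building blocks. The other 6 members had no gene with r over 0.20. Within the set the closest pair was Dnmt1 with Uhrf1 (0.31), and Ezh2 reached 0.28 with each of them and 0.18 with Suz12.

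In the bulb 69 cycling cells showed the same 4 genes at least 1.5-fold higher, beside 11.3% of 6500 genes, and 2 enzymes at least 1.5-fold lower, beside 12.6%. Uhrf1 stood at 31.9 CPM (20 to 48.3, 22 UMIs) in cycling and 1.34 CPM (0.967 to 1.80) in non-cycling bulb cells, a ratio of 4.58 (3.77 to 5.35). Dnmt1 stood at 60.9 CPM (43.9 to 82.3) and 8.42 CPM (7.45 to 9.48), a ratio of 2.85 (2.35 to 3.33). Ezh2 stood at 103 CPM (80.4 to 129.8) and 18.8 CPM (17.4 to 20.4), a ratio of 2.45 (2.07 to 2.81), and Suz12 at 29.0 CPM (17.7 to 44.8) and 13.0 CPM (11.8 to 14.3), a ratio of 1.15 (0.43 to 1.80). The 2 lower enzymes, Tet2 with a ratio of -1.08 (-3.36 to 0.49, 3 UMIs in cycling cells) and Kdm6b with -0.75 (-2.20 to 0.39, 6 UMIs), did not differ beyond counting error. Because cycling cells were rare, they held 33.8% of the bulb Uhrf1 UMIs (22.6 to 46.6) and 10.5% of those of Ezh2 (8.28 to 13.0). Only 4 members passed 10 CPM in the bulb, and counts are over all 10.

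The library ratios were then read in cells without either proliferation transcript. In cells with no Mki67 or Top2a UMI at 5000 UMIs (3681 bulb and 1977 early-anagen cells), 7 of the 10 enzymes were at least 2-fold lower in the bulb, beside 22.3% of 7098 genes, and 0 were at least 2-fold higher, beside 18.1%. All 10 lay below 0 beyond counting error, with a median of -1.67 (-1.89 to -1.46) beside 0.01 for all genes. Dnmt1 stood at 61.2 CPM (56.4 to 66.3) in early anagen and 8.53 CPM (7.25 to 9.97) in the bulb, a ratio of -2.84 (-3.11 to -2.59). Ezh2 stood at 47.5 CPM (43.3 to 52.0) and 18.4 CPM (16.5 to 20.5), a ratio of -1.37 (-1.57 to -1.16), beside -1.99 in all cells at the same depth. Suz12 stood at 53.5 and 13.6 CPM, a ratio of -1.98 (-2.20 to -1.76), and Uhrf1 at 12.4 and 1.63 CPM, a ratio of -2.93 (-3.56 to -2.35). For the removal enzymes the ratios were -2.41 (-2.68 to -2.15) for Tet2 and -2.04 (-2.24 to -1.84) for Kdm6b, beside -2.27 and -1.91 in all cells at the same depth. They were -1.01 (-1.32 to -0.70) for Dnmt3a, -0.95 (-1.30 to -0.60) for Ezh1, -0.78 (-1.07 to -0.48) for Tet3 and -0.26 (-0.48 to -0.04) for Eed. These cells were not matched for the cell cycle. Of the 11 G1/S genes 8 passed 10 CPM in them, and 6 were at least 2-fold lower in the bulb (median ratio -1.89), with Mcm3, of the replicative helicase, at 51.1 CPM in early anagen and 10.3 CPM in the bulb. The 10 G2/M genes together gave 79.6 CPM in early anagen and 33.8 CPM in the bulb. The part of this difference in the ratios of the enzymes was not tested.

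Among cycling cells of both libraries, compared after the other values had been seen, Ezh2 levels came close to each other. It stood at 136 CPM in early anagen and 103 CPM in the bulb, a ratio of -0.41 (-0.77 to -0.06), and in cells with 3 to 9 proliferation UMIs at 150.2 and 138 CPM (-0.12, -0.58 to 0.32). Suz12 levels stayed apart, with 95.6 and 29.0 CPM and a ratio of -1.72 (-2.44 to -1.09) in cycling cells, and -1.21 (-2.10 to -0.44) in those with 3 to 9. Dnmt1 likewise stood at 139 and 60.9 CPM, a ratio of -1.19 (-1.67 to -0.75). Uhrf1 stood at 58.8 and 31.9 CPM (-0.88, -1.57 to -0.27), Kdm6b at 46.2 and 8.70 CPM (-2.41, -3.86 to -1.28) and Tet2 at 31.9 and 4.35 CPM (-2.88, -5.16 to -1.32). At least 2-fold lower in the bulb were 4 of the 10, beside 23.9% of 7295 genes, and 0 at least 2-fold higher, beside 12.5%. In the cells with 3 to 9 proliferation UMIs (34 bulb and 307 early-anagen cells) 6 were at least 2-fold lower, beside 22.8% of 7136 genes, and 0 higher, beside 14.2%, on 2 to 47 bulb UMIs per enzyme.

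**Figure D3:**
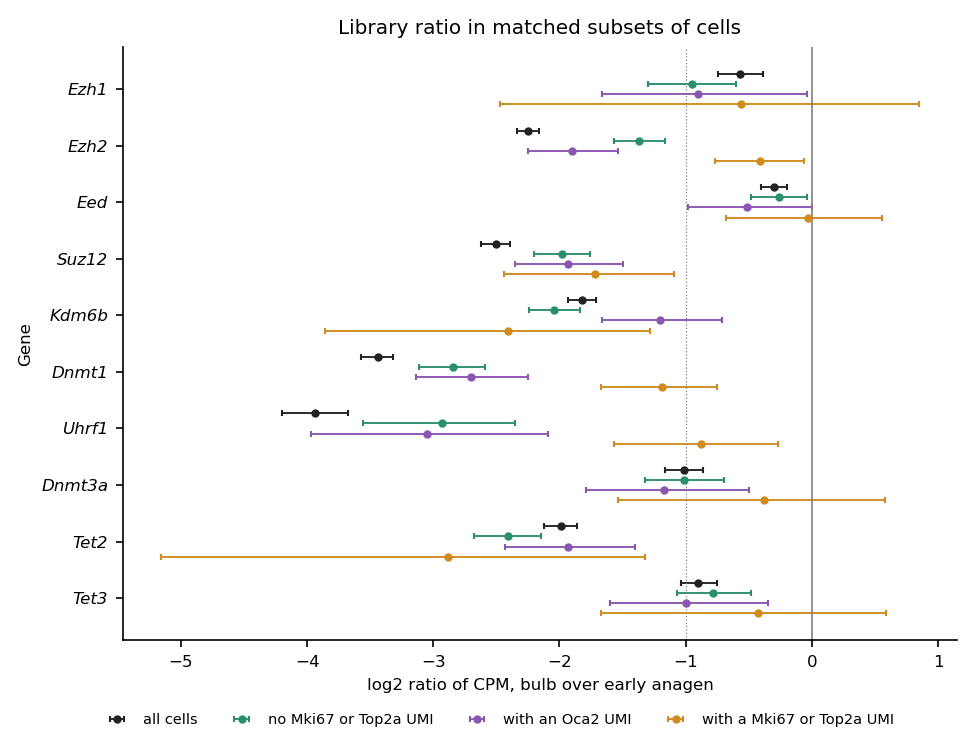
log2 ratio of CPM, bulb over early anagen, for each enzyme in all cells, in cells without a Mki67 or Top2a UMI, in cells with an Oca2 UMI and in cells with a Mki67 or Top2a UMI. Bars are 95% counting intervals, and the dotted line marks 2-fold lower. Among the 4 groups of cells the ratio of Ezh2 lies nearest 0 in cycling cells. The ratios of Tet2 and Kdm6b lie farthest from 0 there, but on 3 and 6 bulb UMIs and with intervals that overlap those of the other groups.

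Oca2 encodes a melanosome membrane protein needed for pigment synthesis and served as the sign of late differentiation among McSCs. At 10000 UMIs per cell, 292 of 2785 early-anagen cells had an Oca2 UMI (10.5%, 9.37 to 11.7) and 3140 of 3288 bulb cells (95.5%, 94.7 to 96.2). Of the early-anagen Oca2+ cells 22.3% were cycling, and of the Oca2- cells 37.2%. Among the 10 enzymes 2 were at least 1.5-fold lower in Oca2+ than in Oca2- McSCs, beside 6.43% of 7437 genes, and 0 were at least 1.5-fold higher, beside 4.53%. Both were of the maintenance pair. Dnmt1 stood at 47.6 CPM (40.0 to 56.2) in Oca2+ and 88.8 CPM (85.2 to 92.6) in Oca2- cells, a ratio of -0.90 (-1.16 to -0.65), and Uhrf1 at 15.4 CPM (11.2 to 20.6) and 28.0 CPM (26.0 to 30.2), a ratio of -0.86 (-1.33 to -0.43). With all UMIs of each cell neither passed 1.5-fold, with ratios of -0.57 and -0.54. Kdm6b (-0.46, -0.73 to -0.20), Eed (-0.42, -0.80 to -0.07) and Ezh2 (-0.34, -0.57 to -0.12) were lower by less than 1.5-fold. The intervals of Suz12 (-0.14, -0.37 to 0.08), Ezh1 (0.35, -0.15 to 0.81), Dnmt3a (0.22, -0.19 to 0.60), Tet2 (-0.19, -0.49 to 0.09) and Tet3 (-0.24, -0.70 to 0.19) held 0.

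Since cycling differed with Oca2, the split was repeated within each cycle class. In non-cycling cells (227 Oca2+ and 1565 Oca2-) 2 enzymes were at least 1.5-fold lower in Oca2+ cells, beside 5.94% of 7334 genes, and 0 were at least 1.5-fold higher, beside 5.44%. The 2 were Dnmt1, at 34.8 CPM (27.6 to 43.4) against 57.1 CPM (53.4 to 60.9), and Kdm6b, at 42.7 CPM (34.7 to 52.1) against 68.8 CPM (64.7 to 73.0). Their ratios were -0.71 (-1.06 to -0.38) and -0.69 (-1.0 to -0.39). Uhrf1 stood at 8.81 and 8.95 CPM (-0.02, -0.78 to 0.66), and its ratio and that of Ezh2 (-0.23, -0.57 to 0.10) were within counting error of 0. In the same non-cycling cells 8 G1/S genes passed 10 CPM and 6 of them were also at least 1.5-fold lower in Oca2+ cells (median -0.86), among them Mcm3 (-0.90), and the part of this in the ratios of the enzymes was not tested. In the 65 Oca2+ and 928 Oca2- cycling cells 2 were at least 1.5-fold lower, beside 9.15% of 7418 genes, and 0 higher, beside 6.13%. They were Dnmt1 (92.3 against 142 CPM, ratio -0.63, -1.02 to -0.25) and Uhrf1 (38.5 against 60.2 CPM, ratio -0.65, -1.29 to -0.07). Dnmt1 was lower in Oca2+ cells of both cycle classes. Ezh2 in cycling cells stood at 145 CPM (117 to 177) with and 136 CPM (128 to 143) without an Oca2 UMI. Kdm6b in cycling cells stood at 47.7 and 46.1 CPM (0.05, -0.53 to 0.58).

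**Figure D4:**
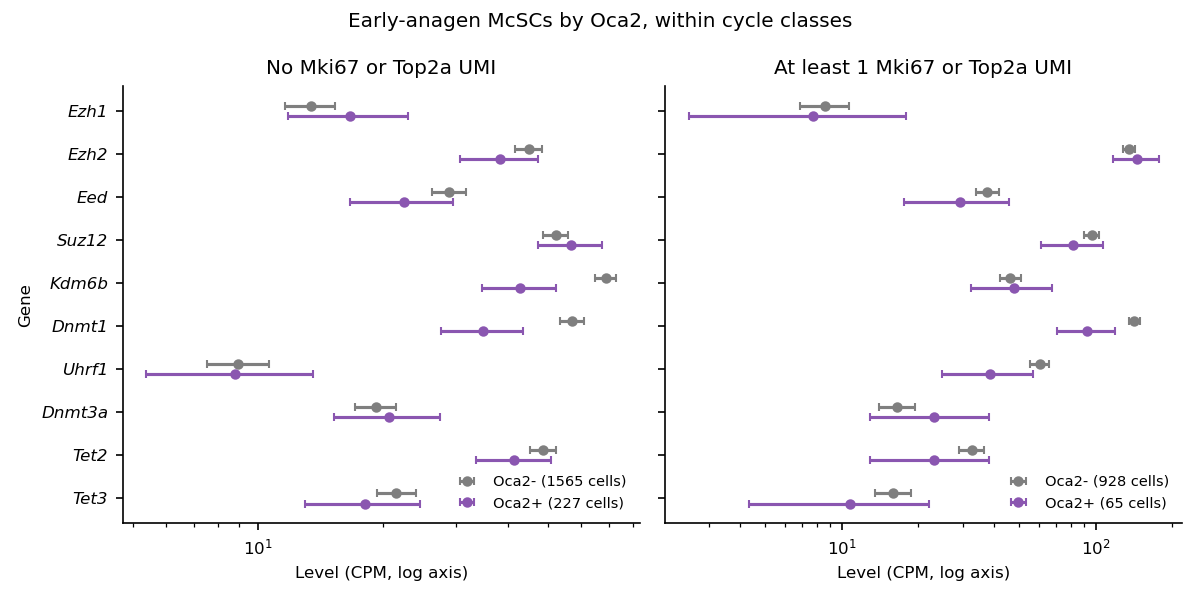
Level of each enzyme (CPM, log axis) in Oca2+ and Oca2- early-anagen McSCs without (left) and with (right) a Mki67 or Top2a UMI, at 10000 UMIs per cell, with 95% counting intervals. Dnmt1 is lower in Oca2+ cells of both panels, Kdm6b in the left panel and Uhrf1 in the right panel.

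Along the number of Oca2 UMIs per cell, 0, 1 and 2 to 4 (2493, 139 and 118 cells), Dnmt1 stood at 88.8, 61.9 and 30.5 CPM, and at 48.6 CPM (28.3 to 77.8) in the 35 cells with 5 or more. Ezh2 stood at 78.7, 76.3, 51.7 and 40.0 CPM in the same order, with overlapping neighbours. Suz12 showed no such order, at 68.6, 64.7, 51.7 and 88.6 CPM. In the bulb, where nearly all cells had Oca2, 2 enzymes were at least 1.5-fold lower in the 3140 Oca2+ than in the 148 Oca2- cells, beside 4.34% of 6499 genes, and 0 higher, beside 4.57%. These were Dnmt1, at 9.14 and 17.6 CPM (-0.94, -1.52 to -0.30), and Uhrf1, at 1.91 and 3.38 CPM on 5 UMIs in Oca2- cells (-0.82, -2.12 to 0.85). Neither passed the 10 CPM asked of the background genes. With all UMIs of the cells neither passed 1.5-fold, at -0.49 for Dnmt1 and 0.10 for Uhrf1. Eed was lower beyond counting error by less than 1.5-fold, at 24.5 and 35.1 CPM (-0.52, -0.92 to -0.08). Of the bulb Oca2- cells 9.46% were cycling, and of the Oca2+ cells 1.75%. In non-cycling bulb cells Dnmt1 stood at 8.04 CPM (7.07 to 9.10) in Oca2+ and 17.2 CPM (10.9 to 25.8) in Oca2- cells. Uhrf1 stood at 1.36 and 0.746 CPM there, the latter from 1 UMI. The part of cycling in these ratios was not tested.

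Early-anagen McSCs with Oca2 did not reach the bulb levels. With cells of both libraries restricted to those with an Oca2 UMI at 5000 UMIs (3226 bulb and 237 early-anagen cells), the median ratio of the 10 was -1.55 (-2.02 to -1.06), and 7 were at least 2-fold lower, beside 17.6% of 6657 genes, with 0 higher, beside 17.0%. Ezh2 stood at 70.9 CPM (56.5 to 87.8) in early anagen and 19.0 CPM (16.9 to 21.2) in the bulb, and Dnmt1 at 54.0 CPM (41.6 to 69.0) and 8.31 CPM (6.96 to 9.84). With cycling cells left out as well (3196 and 194 cells, added later), 9 were at least 2-fold lower, beside 17.0% of 6608 genes, and 0 higher, beside 17.5%, and 8 lay below 0 beyond counting error. The 2 that did not were Eed (-0.40, -0.94 to 0.19) and Uhrf1 (-1.52, -3.07 to 0.47), for which early anagen had 4 UMIs. Ezh1, Dnmt1 and Uhrf1, all among the 9, did not pass the 10 CPM asked of the background genes. Dnmt1 had a ratio of -2.18 (-2.73 to -1.58) and Ezh2 of -1.25 (-1.71 to -0.75).

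Partners of the enzymes were taken from lists of the same pathways, and each count is of genes of at least 10 CPM that were at least 2-fold lower or higher in the bulb, against the 26.6% and 15.8% of all genes given before. Of the 8 PRC2 partners 5 passed 10 CPM, with 3 lower and 0 higher (median ratio -1.35). These were Jarid2, which brings PRC2 to its targets, at 42.3 and 10.5 CPM (-2.01, -2.14 to -1.89), Aebp2, its companion (-1.98, -2.07 to -1.89), and the histone-binding Rbbp4 (-1.35, -1.41 to -1.30). Kdm6a, the other demethylase of the PRC2 mark, stood at 26.0 and 4.83 CPM (-2.43, -2.62 to -2.25). Like Kdm6b it was lower in bulb cells. Of 21 genes of PRC1, the complex that ubiquitinates histone H2A, 12 passed, with 4 lower and 1 higher (median -0.47). Phc2 was lower, at 89.6 and 17.3 CPM (-2.37, -2.47 to -2.27), whereas the catalytic subunits Ring1 (0.08) and Rnf2 (0.10) had ratios close to the median of all genes. L3mbtl2, of a variant PRC1, was higher in the bulb at 15.4 and 49.3 CPM (1.68, 1.58 to 1.78). Of the 3 genes that remove the PRC1 mark, Asxl1 (-3.10) and Asxl2 (-1.19) were lower, whereas Bap1, the catalytic deubiquitinase, had a ratio of 0.48.

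Of 8 partners of DNA methylation 5 passed, with 4 lower and 1 higher (median -1.20). Hells, a remodeller that opens chromatin to Dnmt enzymes, stood at 64.3 CPM in early anagen and 3.27 CPM in the bulb (-4.30, -4.52 to -4.08). It was 1.78 (1.62 to 1.94) higher on the log2 scale in cycling early-anagen cells, in the direction of Dnmt1 and Uhrf1, and still had a ratio of -3.94 (-4.45 to -3.46) in cells without a Mki67 or Top2a UMI. Usp7, which stabilizes Dnmt1, was lower too (-2.58, -2.69 to -2.47). The 1 higher partner was Zbtb24, at 13.2 CPM in early anagen and 30.2 CPM in the bulb (1.20, 1.08 to 1.31). Of 7 genes of DNA demethylation 5 passed, with 1 lower and 1 higher (median 0.60). The lower was Idh2, at 514 and 136 CPM (-1.92, -1.96 to -1.89), near the ratio of Tet2. The higher was Ogt, at 34.5 and 75.4 CPM (1.13, 1.06 to 1.20). Of 6 readers of methylated DNA all passed, with 2 lower and 0 higher (median -0.71), and Mbd2 stood at 246 and 19.8 CPM (-3.64, -3.73 to -3.55). Of 5 methyl donor genes all passed, with 1 lower and 0 higher (median -0.61). That 1 was Ahcy, which clears the inhibitor left by methyl transfer, at 37.2 and 1.99 CPM (-4.23, -4.51 to -3.95).

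Many writers of other histone marks were also lower in the bulb. Of 12 genes of H3K4 methylation and the trithorax group, which oppose Polycomb, 11 passed, with 7 lower and 1 higher (median -1.52), among them Kmt2a (-2.63, -2.76 to -2.50). Of 5 writers of H3K9 methylation 3 passed and all 3 were lower (median -1.13). Of 11 G1/S genes 9 passed, with 8 lower (median -2.34), and all 10 G2/M genes were lower (median -3.01). Because the lists are of unequal size and were chosen with earlier results known, their medians are a description.

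**Figure D5:**
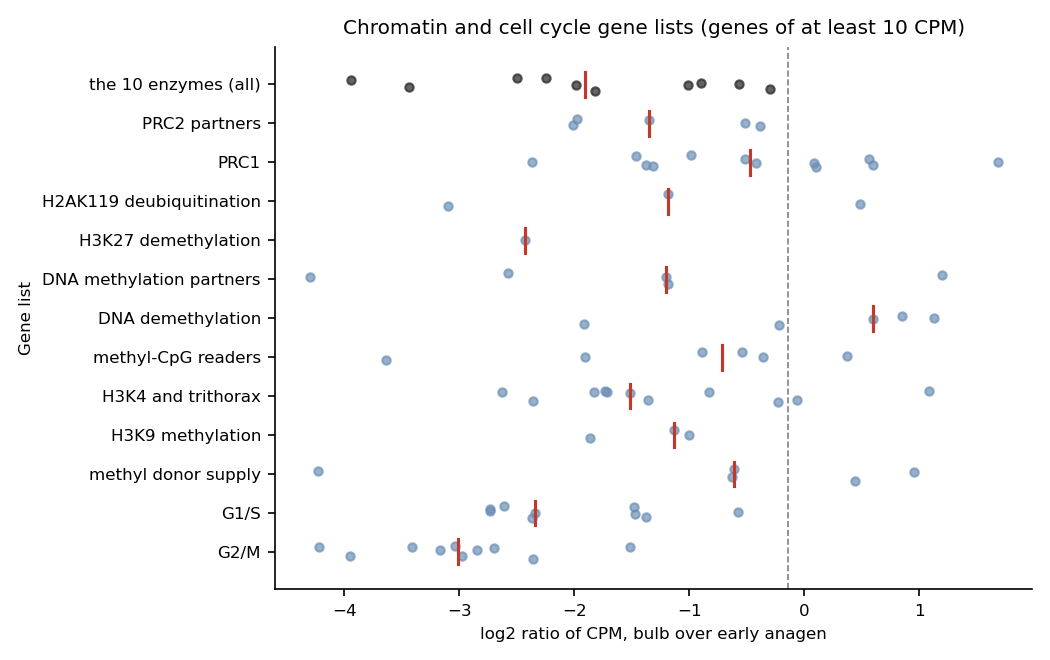
log2 ratio of CPM, bulb over early anagen, with 1 dot for each gene of at least 10 CPM in each list and all 10 enzymes in the top line. Red bars are list medians and the dashed line is the median of all genes, -0.14; the G1/S and G2/M medians lie at -2.34 and -3.01, beside -1.90 for the 10 enzymes.

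At loci that Polycomb is known to silence in many tissues, transcripts were few in both libraries, and 0 of 42 genes passed 10 CPM. The 39 Hox genes, which pattern the body axis, together gave 6.55 CPM (5.99 to 7.15) in early anagen and 14.1 CPM (13.1 to 15.1) in the bulb. Of the bulb sum of 787 UMIs, 377 came from Hoxb9, which had 0 in early anagen, and without it the other 38 gave 6.55 CPM (5.99 to 7.15) and 7.34 CPM (6.64 to 8.08). A UMI was found for 17 Hox genes in early anagen and for 13 in the bulb. Of the cell cycle inhibitors, Cdkn2b stood at 1.81 CPM (1.52 to 2.14) and 10.5 CPM (9.62 to 11.3), and Cdkn2a at 3.82 CPM (3.39 to 4.28) and 6.75 CPM (6.08 to 7.46). Both were higher in the bulb. Cdkn1c went the other way, at 3.94 CPM (3.50 to 4.41) and 0.0895 CPM (0.0291 to 0.209), the latter from 5 UMIs.

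In the annotation used for gene positions (GENCODE M21, GRCm38), Ezh1 and Uhrf1 overlapped no other gene. Ezh2 (chromosome 6, 47530139 to 47595341, minus strand), Suz12 (chromosome 11, 79993106 to 80034123, plus strand), Dnmt3a, Tet2, Tet3, Kdm6b and Eed overlapped a gene on the opposite strand, and Dnmt1 (chromosome 9, 20907209 to 20959888, minus strand), Eed and Tet3 one on the same strand. The same-strand neighbours were Mir7081 for Dnmt1, Gm45120 for Eed, and Mir6374 and 5430434F05Rik for Tet3. Whether these neighbours were counted, and how reads in the overlaps were assigned, was not checked, so the values of these 3 carry that doubt.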

How the data were processed

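The deposited values were unnormalized UMI counts for 2 libraries, made with Cell Ranger 6.0.1 on mm10, per the file headers and labels, with no replicates pooled after counting. A count is a whole number of distinct molecules. Depth was 75718468 UMIs in 2785 early-anagen cells and 55883067 in 3734 bulb cells.

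Counts were summed over cells and scaled to CPM, with exact Poisson intervals for levels, exact conditional intervals for ratios and Clopper-Pearson intervals for shares, all at 95%. For the splits cells were thinned without replacement to 10000 UMIs, which left out 446 bulb cells, and for shares and the subsets without proliferation transcripts to 5000. Genes of at least 10 CPM in both groups pooled formed the background, with folds of 2 between libraries and 1.5 within. Counts of enzymes were over all 10, including those under this minimum. No count model was fitted, as each group had 1 library. No doublet caller was run; leaving out the 5% of cells with the most UMIs was an alternative. The authors' sort had a doublet gate. Named genes were the 10 enzymes and, from each list, the genes past the fold with the largest ratios, up to 4; Ring1, Rnf2, Bap1, Hoxb9 and the sums at silenced loci were named after their values were seen. Members and lists were chosen with earlier results of these data known. Alternatives covered cell selection, thinning, weighting and scaling (edgeR 4.0.16 TMM factors). The calculation of ratios and intervals was tested on simulated Poisson counts. These hold no variation between cells or mice beyond counting error, so the test cannot show how the intervals hold for real cells. Python 3.11.15, numpy 2.4.6, scipy 1.17.1, pandas 2.3.3 and R 4.3.3 were used. Promoter sequences were those of RefSeq, GRCm38.p6.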

Additional observations from a re-analysis of the deposited data

How the results depend on the processing

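No paired analysis was possible because each group has 1 library. For bulb over early anagen, the median log2 ratio of the 10 enzymes was -1.90 and became -1.59 with edgeR TMM factors, which add 0.31 to every ratio, and -2.06 with a total that omitted pigmentation, ribosomal protein and mitochondrial genes, which adds -0.16. It became -1.67 in cells with no Mki67 or Top2a UMI, -1.55 in cells with an Oca2 UMI and -1.23 in cells with Oca2 and neither of the other transcripts, the last added after the data were seen. With TMM factors the Eed ratio was 0.01, the only 1 of 130 values of single enzymes under 13 alternatives with a sign other than that reported. Between 6 and 9 of 10 were at least 2-fold lower. For cycling over non-cycling early-anagen cells 4 enzymes were higher under all 8 alternatives, while the count of lower enzymes, 1, became 3 with at least 3 Mki67 and Top2a UMIs, 2 with another random draw and 0 without any keratin UMI. For the Oca2 split in early anagen the count of lower enzymes, 2, became 0 with all UMIs of each cell. It became 3 with at least 2 Oca2 UMIs against 0, and 11 of 80 values had another sign. In the bulb, with all UMIs of each cell, the 2 lower enzymes became 1 for the cycling split, Kdm6b (-1.21), and 1 for the Oca2 split, Tet3 (-0.67), where Dnmt1 stood at -0.49 and Uhrf1 at 0.10. Ezh2 UMIs per Ezh1 UMI in early anagen, 9.12, became 6.34 at 5000 UMIs per cell and 3.41 in cells with no Mki67 or Top2a UMI. The causes of these shifts were not tested. Without a minimum of 10 CPM, 35.6% of 15502 genes were at least 2-fold lower in the bulb. With 69 cycling bulb cells, 65 cycling Oca2+ cells and single-digit UMIs for several enzymes in them, ratios in those cells were measured to no better than their intervals.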
